A study of Mus musculus with 12 samples.

Results

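Accessible chromatin was examined at 10 genes that govern passage through the G1 phase of the cell cycle, taken from a single ATAC-seq peak list of mouse blood cells. The genes were the D-type cyclins Ccnd1, Ccnd2 and Ccnd3, the cyclin-dependent kinases Cdk4 and Cdk6, and the inhibitors Cdkn1a, Cdkn1b, Cdkn1c, Cdkn2a and Cdkn2c. Their members were found by symbol: a peak was counted for a gene when the annotation of the list gave that gene as its nearest promoter. This gave 76 of the 84243 peaks in the list, which names 19040 genes in all. ATAC-seq uses a transposase that cuts exposed DNA and inserts sequencing adapters, so a peak marks a stretch of open chromatin. The 12 samples, from untreated C57BL/6 wild-type mice of 8 to 12 weeks of age, comprised 6 sorted cell types in 2 replicates. The cell types were hematopoietic stem cells (HSCs), megakaryocyte progenitors (MkPs), erythroid progenitors (EPs), granulocyte/macrophages (GMs) and B cells, all labelled bone marrow, and T cells, labelled thymus. The sources used here do not say how many mice stood behind a replicate. All were combined into the master peak-list, in which a peak has a position and a nearest gene but no cell type, no read count and no height, since the score column was 0 throughout. Every value below therefore describes where chromatin was open in at least part of these blood cells, depth is unknown, and no difference between cell types or replicates could be measured. Of 1 marker gene for each sorted cell type, Itga2b (MkP), Klf1 (EP), Ly6g (GM), Cd79a (B cell) and Cd3e (T cell) had a promoter peak. Procr, the HSC marker, had 2 peaks but none at its promoter, the nearest lying 4708 bp from the transcription start site (TSS).

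D-type cyclins bind the kinases CDK4 and CDK6 and, as growth signals raise their level, phosphorylate the retinoblastoma protein, which then releases E2F factors that switch on the genes of DNA replication. The inhibitors hold this step back and fall into 2 families. The INK4 proteins, among them p16INK4a from Cdkn2a and p18INK4c from Cdkn2c, bind the kinases CDK4 and CDK6 themselves, whereas the CIP/KIP proteins p21 (Cdkn1a), p27 (Cdkn1b) and p57 (Cdkn1c) bind cyclin-CDK complexes. In blood, quiescence of stem cells, expansion of progenitors and arrest at terminal differentiation are all known to involve these genes.

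Each of the 10 genes had a promoter peak, defined as a peak whose centre lay within 500 bp of a TSS, against 53.6% of 21000 protein-coding genes. Distal peaks, meaning all others that were nearest to the gene, were unevenly divided. The 5 cyclin and kinase genes had 6 promoter and 52 distal peaks, and the 5 inhibitor genes had 6 promoter and 12 distal peaks. Promoter peaks were 10.3% of the cyclin and kinase peaks (exact 95% binomial interval 3.89 to 21.2%) and 33.3% of the inhibitor peaks (13.3 to 59.0%), against 15.6% of all peaks in the list. These intervals overlap, cover counting error only and treat peaks of 1 gene as independent, which they are not. No test was made between the groups, because genes are not replicates of a condition and these were chosen with earlier results of the list known. A distal peak was present at 9 of 10 genes, the exception being Cdk4, and at 64.3% of protein-coding genes.

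**Figure D1:**
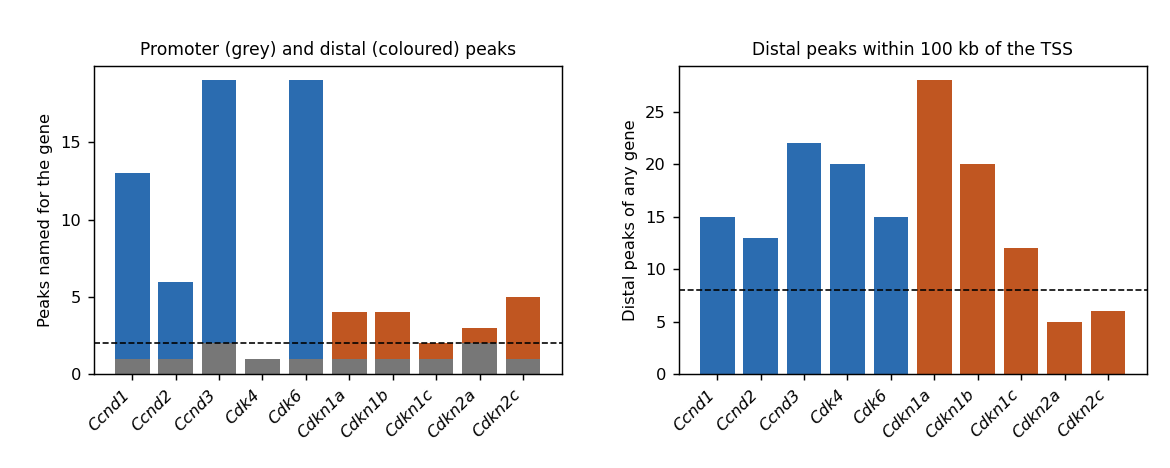
Peaks per gene for the cyclins and kinases (blue) and inhibitors (orange). Left, peaks named for each gene (y axis), with promoter peaks in grey at the base and distal peaks coloured above, and the dashed line at the median of 2 peaks per protein-coding gene. Right, distal peaks within 100 kb on either side of the TSS whatever gene they are named for (y axis), with the dashed line at the median of 8. Ccnd3 and Cdk6 lead on the left with 19 peaks each, whereas Cdkn1a leads on the right with 28.

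Within the cyclins and kinases the number of distal peaks ranged from 0 to 18, with a median of 12, and within the inhibitors from 1 to 4, with a median of 3. Only Cdk4 among the first group fell below the inhibitors, and Ccnd2, with 5, stood next to Cdkn2c, with 4. Ccnd1, Ccnd3 and Cdk6 each had at least 12 distal peaks, a number reached by 4.5% of protein-coding genes, for which the median was 1 distal peak and the 90th percentile 7. The cut-off of 12 is the count of Ccnd1 itself and so was taken from these data. Counted by curated RefSeq starts, Cdk6 had 10 distal peaks and fell below it. For peaks named for the gene, the spread was thus wide among the cyclins and kinases and narrow among the inhibitors. It was the other way round for all distal peaks within 100 kb on either side of the TSS. These ranged from 13 to 22 for the cyclins and kinases and from 5 to 28 for the inhibitors.

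Ccnd3 encodes cyclin D3, the D-type cyclin best known for its part in lymphocyte and erythroid precursors. It had 19 peaks, 2 of them at promoters, and was exceeded by no other of the 10 genes. The gene spans chr17:47505051-47599689 on the plus strand and has 2 curated TSSs. The peak at chr17:47504802-47505300 was centred 0 bp from the upstream TSS, and the peak at chr17:47593223-47593721 was centred 5 bp from the downstream TSS, the representative start in RefSeq. Of the 17 distal peaks, 15 were intronic, and 12 of these lay in the first intron of the long transcript, between the 2 promoters. The nearest distal peak was 2218 bp from a TSS (chr17:47595436-47595934) and the farthest 40303 bp (chr17:47552915-47553413, on a B4A SINE). The remaining 2 distal peaks were at the end of the gene, 1 in the 3' UTR and 1 at the transcription termination site (TTS). A run of 6 peaks, with neighbouring centres less than 10 kb apart, covered 20.9 kb of that intron.

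Ccnd1 encodes cyclin D1, the D-type cyclin that most growth factor pathways induce. It lies on the minus strand at chr7:144929931-144939831, and its pattern was the reverse of that of Ccnd3, since 9 of its 12 distal peaks were intergenic. All 9 were upstream. The promoter peak (chr7:144939543-144940041) was centred 133 bp inside the gene by the distance column and 39 bp by the RefSeq start used here, which differs by 94 bp. The nearest distal peak was 1626 bp upstream (chr7:144941302-144941800), on a CpG island. The farthest was 108082 bp upstream (chr7:145047758-145048256). Ccnd1 had 2 runs of peaks: 6 within 12.0 kb around the gene itself, and a separate group of 4 within 12.2 kb that began 85767 bp upstream. The first run included 2 peaks in the 3' UTR, at 7363 and 7955 bp from the TSS.

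Ccnd2 encodes cyclin D2, which cytokine signals induce in B cells and progenitors. It lies on the minus strand at chr6:127125708-127151048. Its promoter peak (chr6:127150953-127151451) was centred 154 bp upstream of the TSS, and all 5 distal peaks named for it were upstream as well. The nearest was 849 bp away (chr6:127151648-127152146) and the farthest 27138 bp (chr6:127177937-127178435). Of these 5 peaks, 4 were annotated to the intron of a non-coding transcript. The peaks at 849 and 1379 bp lay 291 and 239 bp from predicted Ccnd2 starts in RefSeq, which were not counted as TSSs. The body of Ccnd2 was not closed: 4 peaks were centred in it, between chr6:127142003 and chr6:127149968, but each was named for 9330179D12Rik, a non-coding gene on the opposite strand, and so counted for that gene.

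The 2 kinases stood at opposite ends. CDK4 and CDK6 are close relatives that phosphorylate the same substrates, and CDK6 is the form that predominates in many blood cells. Cdk4 had 1 peak, at its promoter (chr10:127063254-127063752), centred 32 bp upstream of the TSS of a gene only 3754 bp long (chr10:127063535-127067288, plus strand). Cdk6 had 19, of which 18 were distal and 1 at the promoter. Its gene is 187116 bp long (chr5:3343893-3531008, plus strand). The promoter peak (chr5:3344029-3344527) lay 385 bp into the gene, in the 5' UTR, which put it closer to the 500 bp limit than any other promoter peak of the 10 genes. Upstream, 8 intergenic peaks ranged from 1048 bp (chr5:3342596-3343094, on a CpG island) to 191502 bp (chr5:3152142-3152640). Downstream, 6 peaks lay in the second intron and 4 in the third. The count for Cdk6 is a low one for its gene body, since 22 peaks were centred between the ends of the gene and 11 of them, from chr5:3460815 to chr5:3517162, were named for Fam133b, whose promoter was nearer. By the RefSeq annotation used here, in contrast, all 8 upstream peaks were closer to the transcribed pseudogene Gm15772 or the non-coding gene Gm36470 than to Cdk6.

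The CIP/KIP inhibitors had compact sets of peaks. Cdkn1a, which encodes p21, the inhibitor best known as a p53 target, had a promoter peak at chr17:29093476-29093974, centred 44 bp upstream of its main TSS. It had 3 distal peaks, none upstream. The nearest was 1790 bp into the gene, in the first intron (chr17:29095310-29095808), and the farthest 20361 bp from the TSS (chr17:29113881-29114379). That farthest peak was 51 bp from a RefSeq start of Rab44, the next gene, so by this annotation it is a promoter peak of Rab44. A second curated start of Cdkn1a, upstream of the main one, had no peak of its own, the nearest centre being 2746 bp away. Cdkn1b, which encodes p27, an inhibitor tied to quiescence, had its promoter peak at chr6:134920124-134920622, centred 28 bp upstream of the TSS. Its 3 distal peaks were the closest set of any gene with several, from 1214 bp (chr6:134921366-134921864, in the first intron) to 3116 bp (chr6:134917036-134917534, upstream), so that all 4 peaks fitted into 6.18 kb. Cdkn1c encodes p57, an imprinted inhibitor expressed from the maternal allele and known for holding HSCs in quiescence. It had a promoter peak centred 2 bp from the TSS (chr7:143460803-143461301) and 1 distal peak 5442 bp upstream (chr7:143466243-143466741).

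Of the INK4 inhibitors, Cdkn2a makes 2 unrelated proteins from separate promoters, p16INK4a and p19ARF, the latter an activator of p53 rather than a kinase inhibitor. Both promoters were open in the list. The peak at the p16INK4a start (chr4:89282017-89282515) was centred 74 bp upstream of it, and the peak at the p19ARF start (chr4:89294631-89295129) was centred 261 bp upstream of it. Cdkn2a and Ccnd3 were the 2 genes of 10 with more than 1 promoter peak, against 3.6% of protein-coding genes with at least 2. The only distal peak of Cdkn2a lay 69779 bp from a TSS on an LTR of the MTEb type (chr4:89212164-89212662). In the same window, 4 peaks were named for the neighbouring INK4 gene Cdkn2b. Cdkn2c had its promoter peak at chr4:109666594-109667092, centred 87 bp upstream of its main TSS, and 4 distal peaks from 562 bp (chr4:109665685-109666183) to 55405 bp (chr4:109609718-109610216). The first of these fell just outside the promoter limit, next to a second curated start of Cdkn2c. A peak at 8002 bp, on a CpG island, was 213 bp from the start of the non-coding gene 9630013D21Rik. Counting starts rather than genes, 12 of the 14 curated TSSs of the 10 genes had a peak centre within 500 bp. The 2 without were the upstream start of Cdkn1a and the shorter start of Cdkn2c. The share over all curated starts was not computed, so this count has no background to be set against.

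**Figure D2:**
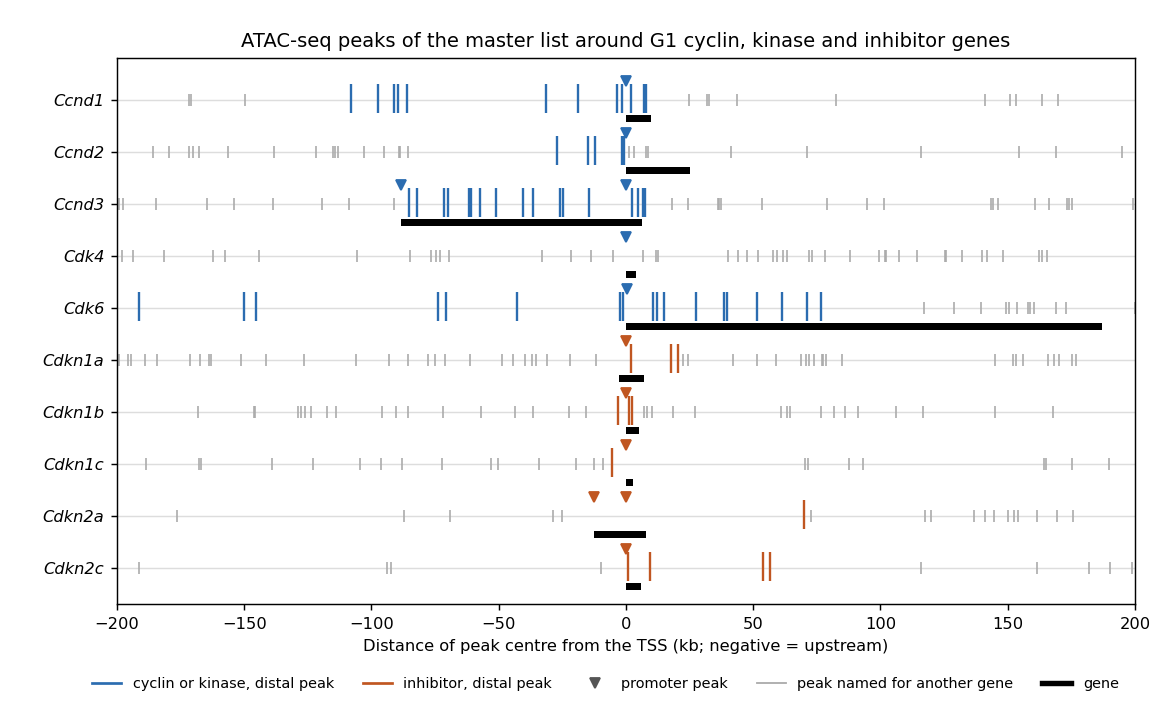
Map of the peaks around each gene, with 1 row per gene and the x axis giving the distance of the peak centre from the representative TSS in kb, read along the gene so that upstream is negative. Tall bars are distal peaks named for the gene (blue for cyclins and kinases, orange for inhibitors), triangles are its promoter peaks, short grey bars are peaks named for other genes and black bars are the gene. Peaks of Ccnd3 fill its long first intron, those of Ccnd1 form a separate upstream group, and the second triangles belong to Ccnd3 and Cdkn2a.

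The DNA beneath several of these promoter peaks is shown because the strings it carries differed from gene to gene. The stretches are the 200 bases before the start from RefSeq (GRCm38.p6), read 5′ to 3′ along the gene. Capitals mark exact matches, on either strand, to short strings known to be bound by common promoter factors. They were GGGCGG for the SP and KLF families, CCAAT for the trimeric factor NF-Y, and CACGTG for the E-box of MYC and its relatives. For the ETS family the string was CCGGAAG, for the TATA box it was TATAAA, and for the cyclic AMP response element (CRE) it was TGACGTCA. E2F factors were searched as TTGGCGC, with TTCCCGC as the second form, and then with TTCGCGC as the third form, and lastly with TTGCCGC as the fourth form. Ccnd1, Ccnd2 and Cdkn1c have no entry in this promoter set, and the Cdk6 stretch lies outside its peak and is not shown. Cdk4 comes from chr10:127063335-127063534 (plus strand), Ccnd3 from chr17:47593267-47593466 (plus), Cdkn1a from chr17:29093569-29093768 (plus), Cdkn1b from chr6:134920201-134920400 (plus), Cdkn2a at p16INK4a from chr4:89282193-89282392 (minus), Cdkn2a at p19ARF from chr4:89294620-89294819 (minus) and Cdkn2c from chr4:109666757-109666956 (minus).
Cdk4: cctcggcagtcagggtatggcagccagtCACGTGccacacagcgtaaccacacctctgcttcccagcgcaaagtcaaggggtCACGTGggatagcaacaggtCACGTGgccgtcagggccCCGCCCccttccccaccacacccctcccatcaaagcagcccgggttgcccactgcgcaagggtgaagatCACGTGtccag
Ccnd3: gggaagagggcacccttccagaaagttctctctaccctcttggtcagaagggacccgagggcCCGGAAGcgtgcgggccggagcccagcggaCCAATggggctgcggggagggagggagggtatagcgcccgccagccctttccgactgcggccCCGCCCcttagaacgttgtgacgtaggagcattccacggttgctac
Cdkn1a: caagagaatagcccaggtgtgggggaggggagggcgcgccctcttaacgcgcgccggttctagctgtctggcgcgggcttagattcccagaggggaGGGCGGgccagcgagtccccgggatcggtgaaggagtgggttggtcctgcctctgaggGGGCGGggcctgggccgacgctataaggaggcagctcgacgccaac
Cdkn1b: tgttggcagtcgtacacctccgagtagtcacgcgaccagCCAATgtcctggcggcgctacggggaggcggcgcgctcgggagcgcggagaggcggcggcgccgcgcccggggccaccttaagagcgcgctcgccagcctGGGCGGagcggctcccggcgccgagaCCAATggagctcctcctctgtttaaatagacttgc
Cdkn2a p16INK4a: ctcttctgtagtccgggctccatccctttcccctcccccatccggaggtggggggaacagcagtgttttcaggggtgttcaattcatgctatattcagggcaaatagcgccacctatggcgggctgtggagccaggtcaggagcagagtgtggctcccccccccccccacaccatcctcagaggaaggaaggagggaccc
Cdkn2a p19ARF: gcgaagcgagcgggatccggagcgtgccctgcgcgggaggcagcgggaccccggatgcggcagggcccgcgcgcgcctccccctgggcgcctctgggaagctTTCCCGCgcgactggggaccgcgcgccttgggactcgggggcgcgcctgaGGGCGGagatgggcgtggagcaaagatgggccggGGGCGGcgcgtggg
Cdkn2c: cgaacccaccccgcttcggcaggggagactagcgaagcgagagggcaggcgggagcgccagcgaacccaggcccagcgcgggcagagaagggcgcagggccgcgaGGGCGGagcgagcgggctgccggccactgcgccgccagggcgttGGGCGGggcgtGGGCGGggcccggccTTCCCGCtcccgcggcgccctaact

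The Cdk4 stretch held 4 copies of CACGTG, which begin 172, 118, 98 and 11 bases before the start. Of all 13171 promoter peaks, 10 (0.0759%) held at least 4 copies of this string, and 13.8% held at least 1. Cdk4 was singled out here after its sequence had been seen. No other promoter peak of the 10 genes held it. Cdkn2c carried an E2F string 25 bases before its start and 3 copies of GGGCGG upstream of that. The p19ARF promoter of Cdkn2a carried an E2F string 98 bases before its start and 2 copies of GGGCGG, whereas the 200 bases before the p16INK4a start held none of the strings. Cdkn1b had CCAAT 161 and 35 bases before its start. Cdkn1a had GGGCGG 104 and 46 bases before its start.

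Over the whole width of the promoter peaks, E2F strings were found in 3 of 6 inhibitor peaks (Cdkn1b, Cdkn2c and Cdkn2a at p19ARF) and in 0 of 6 cyclin and kinase peaks, against 26.9% of all promoter peaks. In the central 200 bp the counts were 1 of 6 (Cdkn2c) and 0 of 6, against 13.1%. With 6 peaks, a count of 0 allows a share of up to about 50%, so the 2 groups were not shown to differ in this string. This is an approximate 95% limit, 3 divided by the number of peaks, and not an exact one. GGGCGG was in 6 of 6 inhibitor peaks and 4 of 6 cyclin and kinase peaks (75.7% of all promoter peaks), the 2 without it being those of Ccnd2 and Cdk6. Cdkn1c held the most copies, 7, a number reached by 4.56% of promoter peaks. CCAAT was in 5 of 6 inhibitor peaks and 2 of 6 cyclin and kinase peaks (44.3%). The ETS string was found in the downstream Ccnd3 promoter alone among the 12 (21.3%), the TATA box string in those of Cdkn1c and of Cdkn2a at p19ARF (7.81%), and the CRE string in none (3.63%). The Cdkn1c TATA match (chr7:143461023-143461028) lay inside the gene, which starts at chr7:143461050 on the minus strand. The Cdkn2a match (chr4:89295019-89295024) lay far upstream of the p19ARF start at chr4:89294619, also on the minus strand. Both groups were rich in G and C, with medians of 65.7% for the cyclins and kinases and 64.9% for the inhibitors, near the 63.3% of all promoter peaks. A match is a description of the letters and not evidence that a factor bound there.

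How many distal peaks a gene collects depends on how much DNA lies nearer to it than to any other gene. That stretch, bounded by the midpoints to neighbouring curated TSSs, had a median of 98.8 kb for the cyclins and kinases and 18.9 kb for the inhibitors, against 42.3 kb for protein-coding genes. Counting distal peaks by the same RefSeq starts, the cyclins and kinases had 44 in 429.7 kb, or 10.2 per 100 kb (exact 95% Poisson interval 7.44 to 13.7), and the inhibitors 7 in 201.3 kb, or 3.48 per 100 kb (1.4 to 7.17). Protein-coding genes together had 2.86 per 100 kb. The intervals cover counting error only. The contrast between the groups depended on how the stretch was drawn: with stretches from protein-coding genes alone it was 7.65 against 5.76 per 100 kb, with Cdk6 at 4.06 in place of 9.99, and in fixed windows of 100 kb on either side 8.5 against 7.1. The density did not sort the genes by group. The highest value of all belonged to an inhibitor, Cdkn1b, with 3 peaks in 15.4 kb (19.4 per 100 kb), and 2.43% of protein-coding genes were as dense. Ccnd3 followed with 17.2 per 100 kb, a density reached by 3.6% of protein-coding genes. Cdk6, Cdkn2c, Ccnd1, Ccnd2 and Cdkn1a lay between 9.99 and 5.28 per 100 kb, and Cdkn1c (1.4), Cdkn2a (1.17) and Cdk4 (0) were lowest. The values for Cdkn1a, Cdkn2c, Cdkn1c and Cdkn2a rest on 1 peak each.

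**Figure D3:**
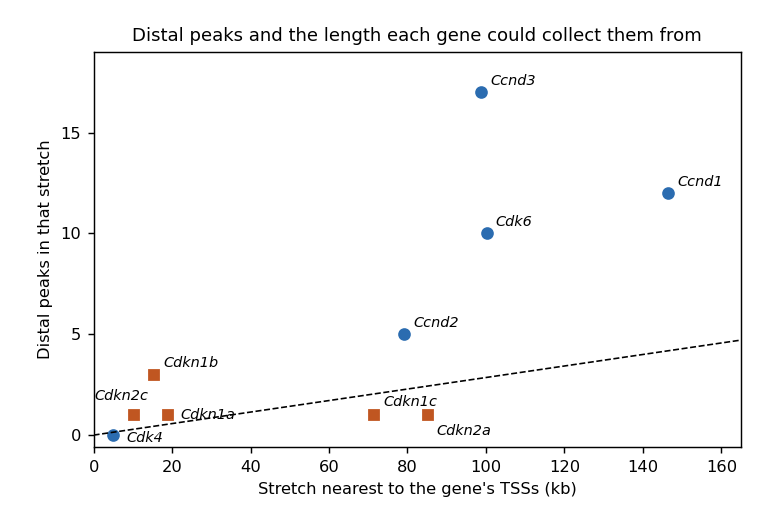
Distal peaks whose nearest RefSeq start belongs to the gene (y axis) against the stretch of DNA nearest to its starts in kb (x axis), for cyclins and kinases (blue circles) and inhibitors (orange squares). The dashed line is the pooled density of protein-coding genes, 2.86 peaks per 100 kb. Ccnd3, Ccnd1, Cdk6 and Ccnd2 lie above the line. Cdkn1b, Cdkn2c and Cdkn1a lie above it in short stretches, and Cdkn1c, Cdkn2a and Cdk4 lie below it.

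The surroundings of the genes, taken without regard to which gene a peak was named for, differed less. Within 100 kb on either side of the representative TSS there were 85 distal peaks for the cyclins and kinases and 71 for the inhibitors, with medians of 15 and 12, against 8 for protein-coding genes. The fullest window was that of Cdkn1a, with 31 peaks of all kinds, of which 27 were named for other genes: 13 for Rab44, 5 each for Srsf3 and Trp53cor1, and 4 for Stk38. Trp53cor1 is the non-coding p53 target also called lincRNA-p21. The Cdkn1b window held 25 peaks, 21 of them named for neighbours. Cdk4, with a single peak of its own, had 25 named for other genes in its window, 11 of them for Os9. In contrast, each of the 16 peaks in the Cdk6 window was named for Cdk6. The emptiest windows were those of the INK4 genes Cdkn2a and Cdkn2c, with 8 peaks each. Nearest-gene naming does not show which gene a distal peak acts on.

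Distal peaks as named for the 2 groups differed in annotation and distance. Of the 52 cyclin and kinase peaks, 30 were intronic and 17 intergenic, whereas 3 of the 12 inhibitor peaks were intronic and 8 intergenic. Over the whole list 48% of distal peaks were intronic and 44.6% intergenic. The median distance to the TSS was 26308.5 bp for the cyclins and kinases and 6722 bp for the inhibitors, against 22261 bp for all distal peaks. Within 10 kb of a TSS lay 15 of 52 and 7 of 12 peaks, against 28.9% of the list. Beyond 100 kb lay 4 of 52 and 0 of 12, against 13.0%. The 4 far peaks were named for Ccnd1 (1) and Cdk6 (3). By the RefSeq annotation the 3 of Cdk6 were nearest to Gm15772, at 37813 to 83999 bp, and so not beyond 100 kb. Upstream peaks were 27 of 52 and 3 of 12, against 41.7%. Of the 27, 5 at Ccnd3 were upstream only of its downstream start and lay in introns of its long transcript. Repeats covered 7 of 52 and 3 of 12 peaks, against 17.9%. Annotated CpG islands held 4 of 52 and 2 of 12 distal peaks, against 1.89%, and these were 2 peaks each at Ccnd1 and Cdk6 and 1 each at Cdkn1a and Cdkn2c. The Cdkn2c peak is the one 213 bp from the start of 9630013D21Rik. None of these differences was tested, and the 52 peaks come from 4 genes, with Ccnd3 holding 15 and Cdk6 holding 10 of the 30 intronic ones. These 2 genes are 94639 and 187116 bp long, against 2712 to 20147 bp for the inhibitors. The part played by gene length was not tested. Of the 12 inhibitor peaks, 3 at Cdkn2c and 2 at Cdkn1a were nearest to another gene by the RefSeq annotation.

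Distal peaks were also searched on both strands for strings of factors known in blood cells. The string for GATA factors was AGATAA, that for RUNX factors was TGTGGTT, and that for ETS factors was AGGAAG. The E-box searched here was CAGCTG, the AP-1 string was TGACTCA, and the string for FOXO factors was TGTTTAC. The joint string of IRF factors and PU.1 was GGAAGTGA, the STAT string was TTCCNGGAA, and the CEBP strings were TTGCGCAA, TTGCACAA and TTGCATAA. The CTCF motif was searched by its consensus. For p53 the search took 2 copies of CWWG, where W is A or T, with any 6 bases between. This leaves out the outer and middle bases of the full p53 consensus, so a match need not be a p53 site. The ETS and IRF/PU.1 strings can overlap. The GATA string was in 10 of 52 cyclin and kinase peaks and 0 of 12 inhibitor peaks, against 26.9% of all distal peaks. The RUNX string gave the same counts, 10 of 52 and 0 of 12, against 18%. With 12 peaks, a count of 0 allows a share of up to about 25% by the same approximate limit. That limit is too rough to set against the 26.9% for GATA. The peaks with GATA were at Ccnd3 (4), Cdk6 (4) and Ccnd1 (2), and those with RUNX at Ccnd1 (5), Ccnd3 (4) and Cdk6 (1). A GATA or RUNX string was present in 19 peaks, all of the first group, and 39.9% of distal peaks of the list held either. Only 1 peak, in the second intron of Cdk6, held GATA, RUNX and ETS strings together, as did 3.27% of the list. ETS strings were in 35 of 52 and 7 of 12 (65.0% of the list) and E-boxes in 19 of 52 and 4 of 12 (30.4%), shares near those of the list. FOXO strings were in 6 of 52 and 3 of 12 (7.25%), the latter at Cdkn1b (2), a known target of FOXO factors, and at Cdkn1a (1), where the string lay in the peak that is 51 bp from a start of Rab44. AP-1 strings were in 7 of 52 and 2 of 12 (11.8%), CEBP in 3 and 1 (3.68%) and the loose p53 string in 8 and 0 (14.9%). CTCF was in 2 and 1 (8.74%), IRF/PU.1 in 2 and 0 (6.75%) and STAT in 0 and 0 (1.74%).

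**Figure D4:**
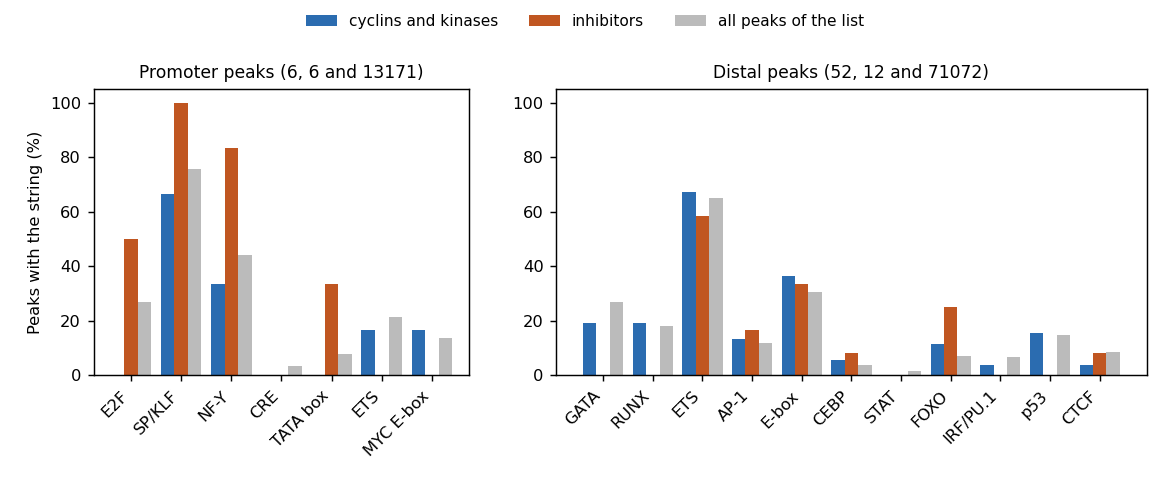
Percent of peaks that hold each string (y axis) for the cyclins and kinases (blue), inhibitors (orange) and all peaks of the list (grey), in promoter peaks on the left and distal peaks on the right, with the number of peaks of each set in the panel titles. The inhibitor bars rest on 6 and 12 peaks. GATA and RUNX bars are 19.2% for the cyclins and kinases and 0 for the inhibitors.

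Parts of 4 distal peaks are shown for the arrangement of these strings. They are read 5′ to 3′ on the plus strand of mm10, and capitals mark GATA, RUNX, ETS, E-box, AP-1 and FOXO strings on either strand. They come from the first intron of Ccnd3 (chr17:47521782-47521853, with GATA and E-box strings), the second intron of Cdk6 (chr5:3371365-3371406, with GATA and ETS strings, in the peak that also holds RUNX), the intergenic DNA upstream of Cdk6 (chr5:3273288-3273402, with FOXO, E-box and ETS strings) and the first intron of Cdkn1b (chr6:134921639-134921698, with E-box and FOXO strings).
Ccnd3 intron, 16728 bp from the upstream TSS: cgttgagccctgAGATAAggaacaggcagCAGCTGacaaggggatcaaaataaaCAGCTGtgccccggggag
Cdk6 intron, 27626 bp from the TSS: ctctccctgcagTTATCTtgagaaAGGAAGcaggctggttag
Cdk6 upstream, 70595 bp before the TSS: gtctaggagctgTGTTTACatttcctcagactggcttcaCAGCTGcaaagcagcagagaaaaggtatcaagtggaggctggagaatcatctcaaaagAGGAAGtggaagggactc
Cdkn1b intron, 1214 bp from the TSS: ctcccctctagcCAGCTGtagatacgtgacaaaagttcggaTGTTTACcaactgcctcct

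A list of 27 other genes of the same pathway gave a wider frame. It held cyclin E, CDK2 and their partners, further inhibitors, the retinoblastoma and E2F families and the regulators of p53 and of p27 turnover. These genes had 145 peaks, of which 31 were promoter peaks and 114 distal, and a promoter share of 21.4% (exact 95% binomial interval 15.0 to 29.0%). A promoter peak was named for 25 of the 27, against 53.6% of protein-coding genes. The 2 without were Cks1b, which helps the SKP2 ligase recognise p27 and had no peak named for it, and E2f8, a repressor of the E2F family. Both starts were nevertheless open: a peak named for Shc1 was centred 179 bp from the Cks1b TSS, and a peak named for Gm2788 was centred 211 bp from the main E2f8 TSS. The median was 3 distal peaks per gene, as in the inhibitors. Fbxw7, the ligase subunit that marks cyclin E for destruction, had the most peaks, 18, followed by E2f3, an activator of S phase genes, with 12, and by Ccne1 (cyclin E1), E2f2 and E2f7 with 11 each. Ccne2 (cyclin E2), its kinase Cdk2, Cdk7, Rbl1, E2f5 and the INK4 gene Cdkn2d each had 1 peak, at the promoter. Of the INK4 genes, Cdkn2b had 7 peaks, more than Cdkn2a or Cdkn2c. At 4 of the 27 genes there were at least 2 promoter peaks, against 3.6% of protein-coding genes.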

How the data were processed

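ATAC-seq reads of 12 samples were mapped by the authors to mm10, without multimapping reads, and peaks were called by the ENCODE pipeline. They concatenated the Irreproducible Discovery Rate optimal lists of the 6 cell types, kept non-overlapping peaks with chromVAR and annotated them with HOMER 4.10.2. The deposited file is that 1 pooled list of peaks of equal width, so calls in a single cell type stand beside calls in all. The deposited score was 0 throughout and was not used, and positions and distances were used as deposited, in bp, without normalization. The file has 0 columns of values per sample, so depth and replicate error are unknown.

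Peaks were taken by gene name. Nearest-promoter naming gives each peak to 1 gene, whatever it acts on. Distances came from HOMER except where RefSeq is mentioned. They matched NCBI RefSeq curated starts (GRCm38.p6, the assembly called mm10, release 108) to within 2 bp for 50 of the 76 peaks and for 73658 of all 84243. The others were 13 at Ccnd1, 8 at Cdk6, 3 at Cdkn2c and 2 at Cdkn1a. Densities used curated RefSeq starts for both peaks and stretches, with assembly gaps left out. Predicted RefSeq starts were not counted. By these, distal peaks at Ccnd2 (849 and 1379 bp) lay 291 and 239 bp from a start of the gene. The same held for Ccnd3 (2218 bp, then 389 bp) and Cdk6 (2455 bp, then 434 bp). Strings were matched exactly on both strands, and the search was tested on simulated data. The RefSeq promoter set (250 bases before to 50 after a start) held 11 windows for 7 of the 10 genes. Genes, lists and strings were chosen with earlier results of these data known. Named were all 10 genes, with each promoter peak and the nearest and farthest distal peak, and, of the 27 pathway genes, the 3 with most peaks (here 5 through a tie) and those without a promoter peak. Alternatives concerned the promoter limit, the gene of a peak, the stretch and the part of the peak searched. The software was Python (3.11.15) with scipy (1.17.1) for intervals, pandas (2.3.3) and numpy (2.4.6) for tables, and matplotlib (3.10.9).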

Additional observations from a re-analysis of the deposited data

How the results depend on the processing

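The larger number of distal peaks at the cyclins and kinases held under each alternative run for both groups, but its size did not. By nearest start of protein-coding genes the counts were 66 and 25. By nearest start of all curated RefSeq genes, an alternative chosen after seeing the data, they were 44 and 7. For all distal peaks within 100 kb they were 85 and 71, a ratio of 1.20 against 4.33. Without Cdk6 the cyclins and kinases had 34, and without Cdkn2c the inhibitors had 8. A promoter limit of 100 bp left 3 promoter peaks at the cyclins and kinases, against 6, and 7 of 10 genes with a promoter peak, Ccnd1, Ccnd2 and Cdk6 being lost. The loss of Ccnd1 came from the distance column (133 bp), since its peak centre was 39 bp from the RefSeq start. Searching the central 200 bp lowered the matched sites from 52 to 28 in promoter peaks and from 179 to 90 in distal peaks, with less sequence searched. The main densities were 10.2 and 3.48 per 100 kb. They became 7.65 and 5.76 with stretches from protein-coding genes and 8.5 and 7.1 in fixed windows. All stayed inside their counting intervals, but that of the inhibitors (1.4 to 7.17) rests on 7 peaks. It is too wide to show that their density was stable. Of 32 alternatives, 24 moved a count by less than 1.5 times or a density within its interval. The cause of the other changes was not tested. No paired analysis was possible because the list holds no values per sample, and leaving out a replicate was not run for the same reason.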
